A study of Bos grunniens with 6 samples.

Results

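Collagen chains of the fibrils and of type VI filaments are described here through 6 of the 15646 genes in the deposited table, the rows named COL1A1, COL1A2, COL5A1, COL5A2, COLL6 and COL6A3. They were chosen by these symbols, with earlier results of these data known. COLL6 is an older symbol of COL11A1, and the row carries the annotation of the type XI collagen trimer, so it is called COL11A1 from here on. The cells came from yak (Bos grunniens) skin and were wild type: dermal papilla cells (DPC), mesenchymal cells that form a small body enclosed by the hair bulb, and hair matrix cells (HMC), the epithelial cells that surround the papilla and build the hair. Both kinds had been isolated and cultured in the same DMEM/F12 medium with IGF1 (10 ng/mL), EGF (20 ng/mL) and 10% fetal bovine serum, and mRNA was sequenced from 3 biological replicates of each. The labels do not tell whether the replicates came from separate animals, so the p-values measure only the spread between these cultures.

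Fibrillar collagens are long triple helices of 3 chains that pack side by side into the fibrils of the dermis. Type I is made of COL1A1 and COL1A2 chains and is the bulk of the fibril, type V (COL5A1, COL5A2) lies inside it and is needed to start fibrils and to limit their width, and type XI (COL11A1) is its close relative, best known from cartilage. Type VI, of which COL6A3 is the largest chain, forms beaded filaments near cell surfaces. In skin these chains are known as products of fibroblasts and other mesenchymal cells.

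Values are FPKM, fragments per kilobase of gene scaled to the mapped depth of the library, so levels of different genes can be set side by side per length. Per library 13.1 to 14.0 M reads (M, mega) could be recovered from the table. Markers agreed in direction with the labels: all 10 fibroblast and mesenchyme markers were higher in DPC, with a summed level of 8551 to 8737 FPKM in DPC and 446 to 531 FPKM in HMC, and 9 of 10 epithelial markers were higher in HMC, at 13880.3 to 14276 FPKM against 82.1 to 106.9 FPKM. The keratin KRT14 was the one epithelial marker that did not pass, and it passed toward DPC when libraries were rescaled by their FPKM outside collagen chains (limma adjusted p = 0.0471). Smooth muscle and pericyte markers, nearly all ACTA2, summed to 9368 to 9711 FPKM in DPC and 166 to 200.3 FPKM in HMC. Of the 4 tested 3 were higher in DPC, and NOTCH3 was higher in HMC at 15.3 against 4.54 FPKM. Melanocyte markers summed to 2.91 to 3.80 FPKM in DPC and 68.4 to 73.1 FPKM in HMC, of which EDNRB alone averaged 64.7 FPKM. MLANA and SOX10 were listed at 0 in DPC, MLANA also in all but 1 HMC library, and PMEL, at 2.98 and 3.97 FPKM, did not pass after median-of-ratios rescaling (limma adjusted p = 0.201). The endothelial markers PECAM1 and CDH5 averaged 0.0291 and 0.0104 FPKM in DPC and 0.0347 and 0.0199 FPKM in HMC, while the whole endothelial list summed to 60.0 to 63.0 and 3.04 to 3.20 FPKM, nearly all ENG in DPC. Immune markers summed to 11.9 to 12.3 FPKM in DPC and 13.4 to 18.8 FPKM in HMC, with LAPTM5 higher in DPC (9.46 against 0.257 FPKM) and CD14 (2.47 against 10.1 FPKM) and AIF1 (0.0511 against 6.48 FPKM) higher in HMC. The part of these other cells in the collagen values was not tested. In these bulk libraries fewer collagen-making cells and less collagen mRNA per cell cannot be told apart.

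All 6 chains were higher in DPC, by between 25.7-fold for COL6A3 and 167-fold for COL11A1. Per length, COL1A2 and COL1A1 were the ninth and eleventh most abundant of all genes in DPC. The 6 chains together held 2.15% ± 0.113 of the FPKM of a DPC library and 0.0337% ± 0.00237 of that of an HMC library (SD, n = 3 each), and 5.88 to 6.43% and 0.110 to 0.124% of the recovered reads. All 6 passed the test toward DPC. Of the 11883 genes tested 75.9% passed in either direction, 29.7% toward DPC and 46.2% toward HMC, and 11% were at least 2-fold higher in DPC, as each of the 6 chains was. The 3 DPC values lay above the 3 HMC values for all 6 chains, as for 30.8% of genes, and 77.9% of genes did not overlap in either direction. On the log2(FPKM + 1) scale a difference as large as that of COL6A3, the smallest of the 6, was reached by 80 genes, 0.673% of those tested. The added 1 shrinks the difference of low genes, so this share leaves out some genes of large fold. The non-fibrillar chain COL8A2, for example, was 105-fold higher in DPC with a log2 difference of 2.58. The test was limma on log2(FPKM + 1), with p adjusted over all genes tested.

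**Figure D1:**
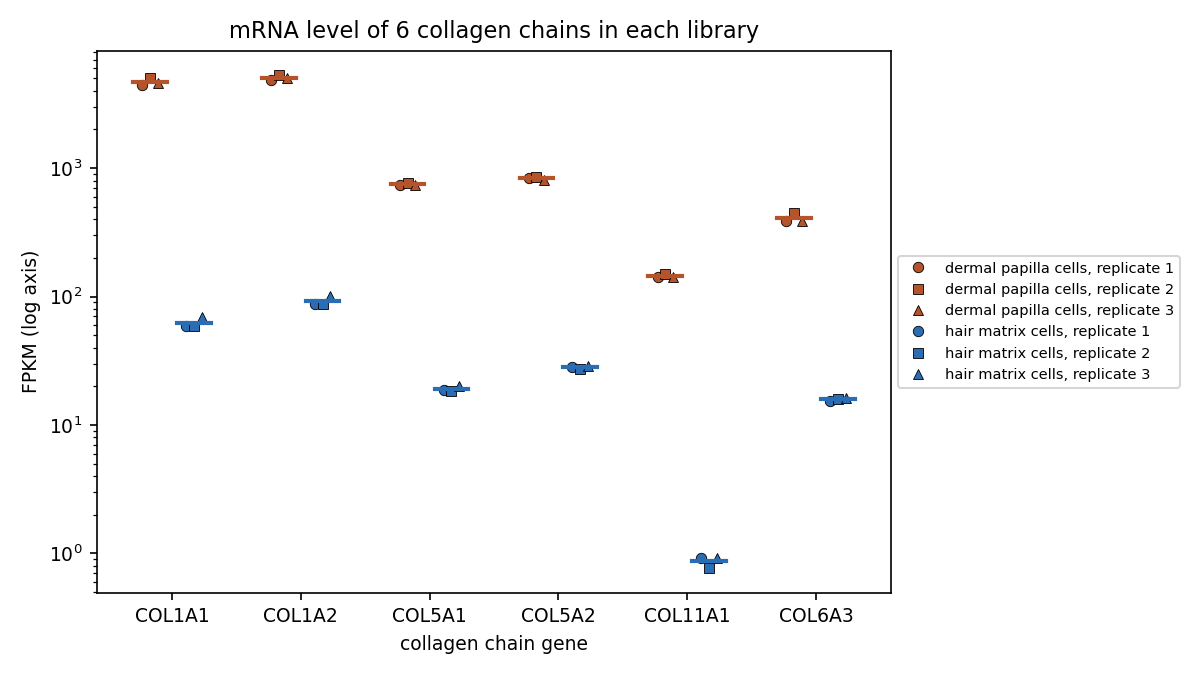
FPKM (log axis) of the 6 collagen chains in each library, with DPC in brown, HMC in blue, a symbol per replicate and a bar at the mean. For every chain the 3 DPC libraries lie above the 3 HMC libraries, and the gap is widest for COL11A1.

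COL1A1, the more abundant partner in the type I protein, measured 4409, 4997 and 4610.02 FPKM in DPC replicates 1, 2 and 3, and 59.2, 59.1 and 69.0 in the HMC replicates of the same numbers. The log2 difference was 6.20 (SE 0.07, 95% interval 6.04 to 6.37, limma adjusted p = 9.77e-11). COL1A2, which supplies the other chain of type I, measured 4883.5, 5276 and 4994 FPKM in the DPC libraries and 88.3, 87.4 and 101 in those of HMC, a log2 difference of 5.76 (SE 0.06, limma adjusted p = 5.69e-11). For both genes DPC replicate 2 was the highest DPC library and HMC replicate 3 the highest HMC library, and the groups lay far apart.

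The type V chains were next in level. COL5A1, whose retained end domain reaches the fibril surface, measured 739, 768 and 742 FPKM in the DPC libraries and 18.7, 18.3 and 20.2 in those of HMC (log2 difference 5.23, SE 0.05, limma adjusted p = 4.83e-11). COL5A2, its partner in the type V molecule, measured 843, 847 and 815 FPKM in the DPC libraries and 28.5, 27.3 and 28.9 in those of HMC (log2 difference 4.84, SE 0.04, limma adjusted p = 3.98e-11). These were the steadiest members in DPC, with a coefficient of variation of 2.13% and 2.11%, against 6.40% for COL1A1 and 8.42% for COL6A3.

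COL11A1 had the largest difference. It measured 141, 151 and 143 FPKM in the DPC libraries and 0.922, 0.768 and 0.914 in those of HMC (log2 difference 6.29, SE 0.06, limma adjusted p = 5.69e-11). The HMC values rest on 64 to 77 recovered reads per library, those in DPC on 11350 to 11850. The constant of 1 shrinks the difference of a gene this low, and it was 7.23 with a constant of 0.1. COL11A1 was the 579th most abundant gene of the table in DPC and the 10995th in HMC.

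COL6A3, the type VI chain, measured 390, 448 and 387 FPKM in the DPC libraries and 15.5, 16.0 and 16.2 in those of HMC (log2 difference 4.60, SE 0.06, limma adjusted p = 1.97e-10). DPC replicate 2 was set apart from the other DPC libraries in this gene more than in any other member, while the HMC libraries were close together. From the highest to the lowest mean the order was COL1A2, COL1A1, COL5A2, COL5A1, COL6A3 and COL11A1 in both cell types. In DPC the ranges of the neighbours COL1A2 and COL1A1 overlapped, although COL1A2 was the higher in each library, and no other neighbours overlapped in either cell type.

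The order of the replicates was shared by most of the chains. All 6 members were highest in DPC replicate 2 among the DPC libraries, where 30.8% of all tested genes were highest. Most other chains that passed toward DPC were highest there too, among them COL3A1, COL6A1, COL6A2, COL12A1 and COL4A1. COL6A5 and COL15A1 were highest in DPC replicate 3 and COL8A2 in DPC replicate 1. In HMC, 5 of 6 members were highest in replicate 3, where 37.1% of tested genes were, and COL11A1 was highest in replicate 1. After median-of-ratios rescaling 4 of 6 were highest in HMC replicate 3 and all 6 still in DPC replicate 2. The summed level of the 6 chains was 211, 209 and 236 FPKM in HMC replicates 1, 2 and 3, and that of the 10 fibroblast and mesenchyme markers was 465, 446 and 531 FPKM in the same libraries, so both were highest in HMC replicate 3. In DPC the chains summed to 11406, 12486 and 11691 FPKM and the markers to 8551, 8552 and 8737 FPKM. DPC replicate 2, highest for the chains, was thus not highest for the marker sum. VIM made up most of the marker sums, with 5668, 5252 and 5632 FPKM in DPC and 366, 353 and 434 in HMC. Singly, DCN, LUM, PDGFRB, CDH11 and S100A4 were highest in DPC replicate 2. VIM, PDGFRA, THY1 and FBLN1 were highest in DPC replicate 1 and TWIST1 in DPC replicate 3. In HMC, PDGFRB, THY1 and S100A4 were highest in replicate 1 and the other markers in replicate 3. The level in HMC as a percent of that in DPC lay between 0.599% and 3.89% for the 6 chains, and between 0.764% (TWIST1) and 10.3% (S100A4) with a median of 1.81% for the markers. The part of other mesenchymal cells in the HMC values was not tested.

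The chains did not differ by a common factor, so their proportions were not the same in the 2 cell types. Within each library the FPKM of one chain was divided by that of another, which removes any scaling of the library. HMC had less COL1A1 per COL1A2 and less COL5A1 per COL5A2, a larger share of type V and type VI mRNA relative to type I, and much less COL11A1 relative to type V. In all 15 pairs of members the ratios of the 3 DPC and the 3 HMC libraries did not overlap. Each pair had the exact two-sided permutation p of 0.1, the smallest that 3 against 3 can give, and it was 0.1 after adjustment over the 15 pairs. A limma fit of the log2 ratio of all genes to a reference chain, added after the data were examined, called 14 of 15 pairs with either chain as the reference. In those fits 99.3% of 11375 genes passed relative to COL1A1, 98.9% to COL1A2, 98.7% to COL5A1, 98.4% to COL5A2 and to COL6A3, and 99.7% to COL11A1. The count of pairs is therefore no result about the members, and the sizes carry the description.

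The type I pair stood at 0.903, 0.947 and 0.923 COL1A1 per COL1A2 in DPC and 0.670, 0.677 and 0.686 in HMC. The ratio was thus 1.36 times higher in DPC (log2 difference 0.45, 95% interval 0.26 to 0.64, limma adjusted p = 0.000938). In the type V pair, COL5A1 per COL5A2 was 0.877, 0.907 and 0.911 in DPC and 0.656, 0.671 and 0.698 in HMC, a factor of 1.33 (log2 difference 0.41, 95% interval 0.27 to 0.56, limma adjusted p = 0.000427). In both pairs each of the 6 libraries held less mRNA of the first chain than of the second, and the intervals of both differences between cell types overlapped.

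In each of the 6 pairs of a type V or type VI chain with a type I chain, the level relative to type I was higher in HMC. COL5A1 per COL1A1 was 0.168, 0.154 and 0.161 in DPC and 0.316, 0.309 and 0.292 in HMC, which is 1.90 times higher in HMC (log2 difference -0.93, 95% interval -1.17 to -0.69). COL5A2 per COL1A2 was 0.173, 0.161 and 0.163 in DPC and 0.323, 0.312 and 0.287 in HMC, 1.86 times higher in HMC. COL6A3 per COL1A1 was 0.0884, 0.0896 and 0.0839 in DPC and 0.262, 0.271 and 0.234 in HMC, 2.92 times higher there. HMC replicate 3 was the HMC library nearest to DPC in all 3 of these ratios.

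COL11A1 went the other way. COL11A1 per COL5A1 was 0.191, 0.196 and 0.192 in DPC and 0.0493, 0.0419 and 0.0453 in HMC, 4.26 times higher in DPC (log2 difference 2.09, 95% interval 1.89 to 2.29, limma adjusted p = 1.56e-07). COL11A1 per COL5A2 was 5.67 times higher in DPC (log2 difference 2.50). With 1 FPKM added to each chain these log2 differences were 1.06 and 1.45, since COL11A1 lay below 1 FPKM in HMC. The pair that differed least was COL5A2 and COL6A3, at 1.89 to 2.16 COL5A2 per COL6A3 in DPC and 1.70 to 1.84 in HMC. It was the one pair whose call changed with the chain taken as the reference, with a limma adjusted p of 0.0755 relative to COL6A3.

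**Figure D2:**
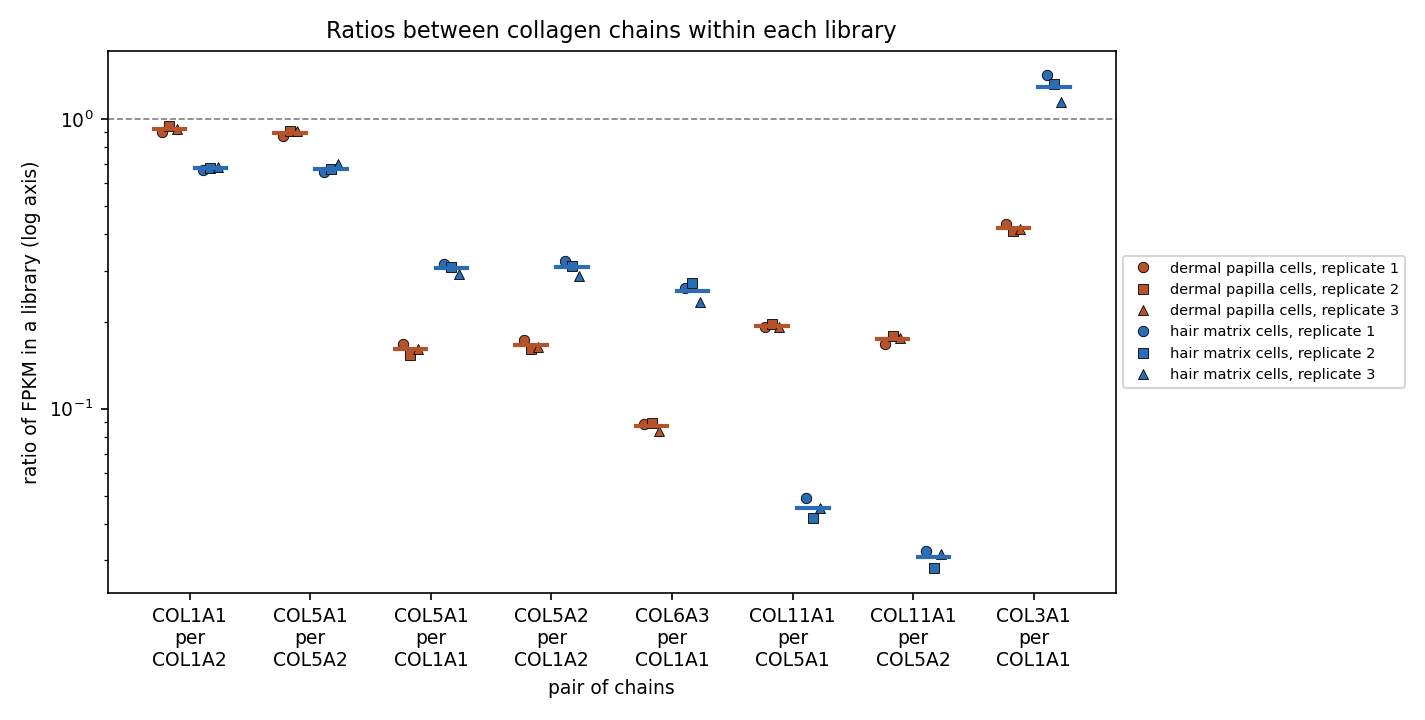
Ratio of FPKM between 2 chains within a library (log axis), for DPC in brown and HMC in blue, with a symbol per replicate, a bar at the mean and a dashed line at equality. Ratios of type V and type VI chains to type I are higher in HMC, ratios of COL11A1 to type V are higher in DPC, and COL3A1 per COL1A1 crosses 1.

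As shares of the summed FPKM of the 6 chains, type I (COL1A1 and COL1A2) made up 81.97% ± 0.431 in DPC and 70.6% ± 1.13 in HMC (SD, n = 3 each). The share of COL1A2 overlapped between the cell types, at 42.6% ± 0.301 and 42.1% ± 0.481, while that of COL1A1 was 39.4% ± 0.684 and 28.5% ± 0.654. COL5A2 held 7.05% ± 0.312 of the sum in DPC and 12.9% ± 0.635 in HMC, COL5A1 6.33% ± 0.165 and 8.73% ± 0.153, and COL6A3 3.44% ± 0.139 and 7.28% ± 0.410. COL11A1 held 1.22% ± 0.0159 in DPC and 0.397% ± 0.0357 in HMC. The shares of the other 5 chains did not overlap.

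**Figure D3:**
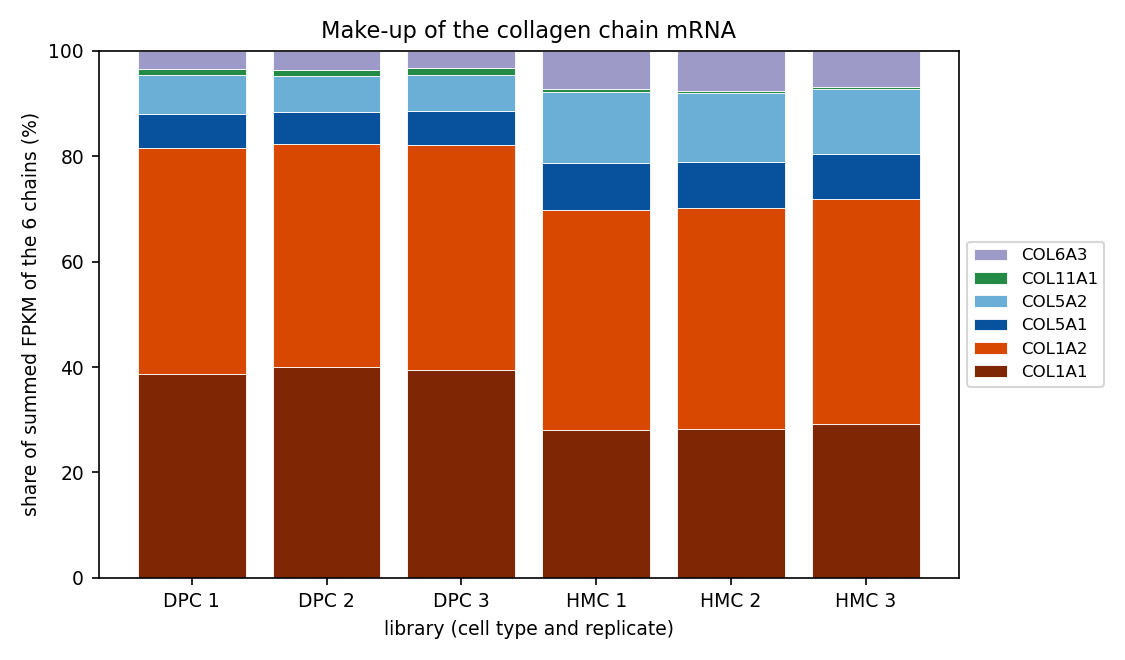
Share (%) of each chain in the summed FPKM of the 6 chains, as stacked bars for the 3 DPC and the 3 HMC libraries. The COL1A1 part is 38.7 to 40.02% in DPC and 28.0 to 29.3% in HMC, and the COL5A2 and COL6A3 parts are wider in HMC.

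The other fibrillar chains were split between the cell types, with 2 of 5 tested higher in DPC and 3 in HMC. Their median log2 difference was -1.33. Among all genes tested 29.7% passed toward DPC and 46.2% toward HMC. COL3A1, which forms mixed fibrils with type I in skin, averaged 1970.1 ± 75.1 FPKM over DPC against 80.3 ± 3.09 over HMC (SD, n = 3 each), a log2 difference of 4.60 (limma adjusted p = 4.99e-11). Its ratio to COL1A1, chosen after its values were seen, was 0.436, 0.412 and 0.419 in DPC and 1.42, 1.32 and 1.15 in HMC, so COL3A1 lay below COL1A1 in every DPC library and above it in every HMC library (log2 difference -1.61, limma adjusted p = 1.07e-06). COL5A3, the third type V chain, averaged 30.5 ± 1.53 FPKM over DPC against 11.9 ± 0.633 over HMC, a 2.57-fold difference beside the 39.3-fold of COL5A1 and the 29.6-fold of COL5A2.

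The 3 fibrillar chains that were higher in HMC were low genes. COL2A1, the main chain of cartilage fibrils, averaged 1.89 ± 0.0545 FPKM over HMC against 0.028 ± 0.0194 over DPC (SD, n = 3 each). COL11A2, a type XI partner of COL11A1, averaged 1.54 ± 0.129 FPKM over HMC against 0.0143 ± 0.0144 over DPC, the opposite direction to COL11A1. COL27A1 (KIAA1870 in the table) averaged 6.45 ± 1.80 FPKM over HMC against 0.667 ± 0.325 over DPC. COL24A1 had means of 0.0778 and 0.168 FPKM in DPC and HMC and was too low to be tested.

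All 4 tested chains of type VI besides COL6A3 passed toward DPC, as did 29.7% of all genes tested. COL6A1 averaged 906 ± 23.4 FPKM over DPC against 39.9 ± 2.43 over HMC, and COL6A2 1518 ± 25.4 against 66.4 ± 3.71 FPKM (SD, n = 3 each). Both assemble with COL6A3 into the type VI molecule, and their folds of 22.7 and 22.8 lay close to its 25.7. COL6A3 per COL6A1 was 0.434, 0.480 and 0.436 in DPC and 0.398, 0.420 and 0.379 in HMC. The log2 difference of that ratio was 0.17 (95% interval -0.02 to 0.37, limma adjusted p = 0.0751), and for COL6A3 per COL6A2 it was 0.17 (95% interval -0.02 to 0.35, limma adjusted p = 0.0774). These 2 ratios were also chosen after the values were seen. COL6A5 (COL29A1 in the table) and COL6A6, which can take the place of COL6A3, averaged 2.47 ± 0.372 and 1.83 ± 0.162 FPKM over DPC against 0.00604 and 0.00345 over HMC.

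Of the non-fibrillar chains outside types IV and VI, 5 of 7 tested were higher in DPC and 2 in HMC. Their median log2 difference was 2.13, beside -0.15 over all genes tested. Of those genes 29.7% passed toward DPC and 46.2% toward HMC. COL12A1, a fibril-associated chain (COL12A1L in the table), averaged 1362 ± 24.3 FPKM over DPC against 58.3 ± 1.02 over HMC (SD, n = 3 each; log2 difference 4.52). COL16A1 (FP1572 in the table) had a log2 difference of 2.65. COL17A1 (BP180), the transmembrane collagen of hemidesmosomes, was higher in HMC at 15.2 ± 0.890 against 0.689 ± 0.158 FPKM, and so was COL23A1, another transmembrane chain, at 1.98 ± 0.316 against 0.0153 ± 0.0266 FPKM. Of 5 type IV chains tested, the basement membrane chains COL4A1 and COL4A2 were 26.1 and 29.0-fold higher in DPC. COL4A3 and COL4A4 were higher in HMC and listed at 0 in all DPC libraries, and COL4A5, at 9.58 and 10.0 FPKM, did not pass, though it passed toward DPC when rescaled by the FPKM outside collagen chains. Over the 37 collagen chains found in the table, the 6 members held 63.3% ± 0.589 of the FPKM in DPC and 38.1% ± 1.42 in HMC. Some listed chains were not matched, among them COL7A1, COL8A1 and COL18A1, so they enter neither these shares nor the counts.

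**Figure D4:**
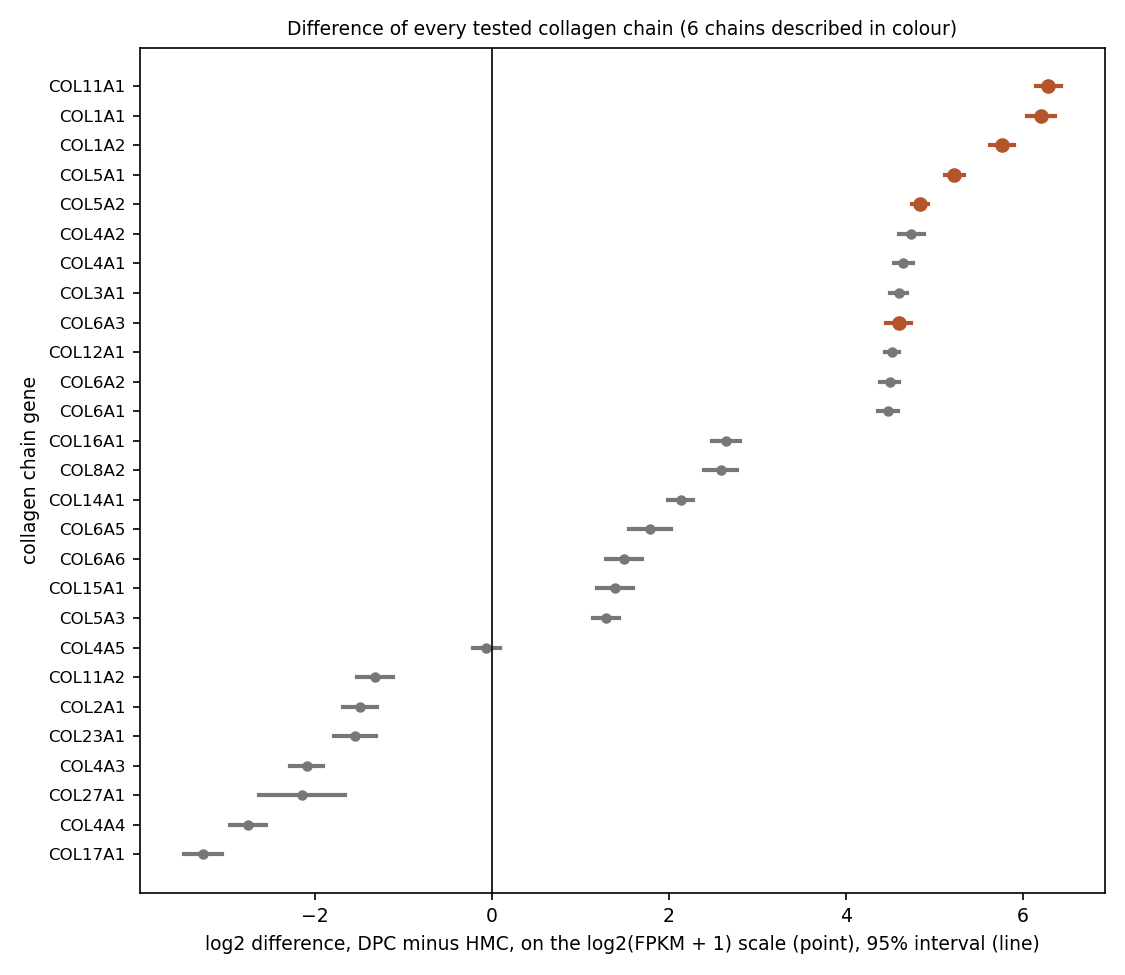
Log2 difference, DPC minus HMC, of every tested collagen chain (point) with its 95% limma interval (line), the 6 members in brown and other chains in grey. COL11A1 and COL1A1 lie farthest right at 6.29 and 6.20. COL3A1, COL6A1, COL6A2 and COL12A1 lie between 4.47 and 4.60 beside COL6A3. The type IV chains COL4A1 and COL4A2, at 4.65 and 4.74, lie to the right of COL6A3 and to the left of the other members. Below 0, 7 chains have intervals that leave out 0. The scale is log2(FPKM + 1), which shrinks low chains. By the ratio of means COL8A2 was 105-fold higher in DPC, more than the 74.8-fold of COL1A1, yet it lies at 2.58.

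Most enzymes and chaperones that fold the chains were also higher in DPC. A collagen chain is hydroxylated, glycosylated and held by chaperones in the endoplasmic reticulum before it leaves the cell. Of 17 tested genes for these steps 14 were higher in DPC and 2 in HMC, 11 and 1 of them by 2-fold or more. Their median log2 difference was 1.50. Among all genes tested 29.7% passed toward DPC and 46.2% toward HMC, and 11% were at least 2-fold higher in DPC. The collagen chaperone SERPINH1 averaged 1993 ± 18.5 FPKM over DPC against 141 ± 5.99 over HMC (SD, n = 3 each; log2 difference 3.81), and had the highest mean of the list over both cell types together, though SPARC was higher in DPC and P4HB and PPIB in HMC. SPARC, a collagen-binding matrix protein, had the largest log2(FPKM + 1) difference of the list, at 2023 ± 74.0 against 93.5 ± 1.64 FPKM (log2 difference 4.42), and the lysyl hydroxylase PLOD2 had a log2 difference of 3.59. P3H2, a prolyl 3-hydroxylase, was higher in HMC at 31.9 against 10.3 FPKM. TMEM38B, an ion channel of the endoplasmic reticulum, was higher in HMC at 5.92 against 4.24 FPKM, and it did not pass after median-of-ratios rescaling (limma adjusted p = 0.0657). P4HB (PDIA1 in the table), the shared subunit of prolyl 4-hydroxylase and a general folding enzyme, differed by no more than the spread at 847 (DPC) and 853 FPKM (HMC; limma adjusted p = 0.747), whereas the catalytic subunits P4HA1, P4HA2 (UNQ290/PRO330 in the table) and P4HA3 were 7.19, 10.2 and 24.1-fold higher in DPC. By the ratio of means P4HA3 differed more than SPARC, at 21.6-fold, but it averaged 0.528 FPKM in HMC, where the added constant of 1 shrinks a log2 difference. After median-of-ratios rescaling P4HB was higher in DPC by a log2 difference of 0.15 (limma adjusted p = 0.00166).

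Outside the cell, procollagen ends are cut off and the fibrils are cross-linked. Of 9 tested genes of these steps 5 were higher in DPC and 3 in HMC, with a median of 1.40. The shares over all genes tested were 29.7% toward DPC and 46.2% toward HMC. The lysyl oxidase LOX, which starts the cross-links, averaged 351 ± 6.15 FPKM over DPC against 6.87 ± 1.53 over HMC (SD, n = 3 each; log2 difference 5.50), and PCOLCE (Pcpe1 in the table), an enhancer of propeptide cleavage, averaged 346 ± 6.86 against 12.3 ± 0.666 FPKM. LOXL1, a relative of LOX best known for elastin, was higher in HMC at 412 ± 13.6 against 233 ± 8.03 FPKM. It was the most abundant gene of the list in HMC, and LOX, PCOLCE and LOXL2 were more abundant in DPC. Transglutaminase TGM2, which cross-links many proteins, was higher in HMC averaging 351 ± 4.28 against 3.00 ± 0.775 FPKM (log2 difference -6.47). The propeptide protease BMP1 was higher in HMC at 45.1 against 39.8 FPKM, and this difference turned to the other sign, without passing, after quantile normalization (log2 difference 0.11). LOXL3 did not pass, at 6.06 and 5.66 FPKM, and was called higher in DPC after quantile normalization.

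The collagen receptors were not all higher in the same cell type. Of 9 tested genes for binding and uptake 6 were higher in DPC and 1 in HMC, with a median of 1.99. Over all genes tested 29.7% passed toward DPC and 46.2% toward HMC, 75.9% in either direction. DDR1 and ITGB1 were listed too but not matched, so these receptors were not seen. The uptake receptor MRC2 (CLEC13E in the table) averaged 107 ± 0.532 FPKM over DPC against 5.44 ± 0.318 over HMC, and the receptor kinase DDR2 (NTRKR3 in the table) 32.0 ± 1.47 against 1.03 ± 0.0607 FPKM (SD, n = 3 each). ITGA1 and ITGA2 encode 2 of the collagen-binding integrin chains, and they lay in opposite directions. ITGA1 averaged 54.5 ± 3.83 FPKM over DPC against 2.96 ± 0.232 over HMC, and ITGA2 1.17 ± 0.244 against 92.97 ± 4.92 FPKM. ITGA11 (MSTP018 in the table), another such chain, was higher in DPC at 4.14 ± 0.407 against 0.293 ± 0.0390 FPKM. ANTXR2 (CMG2 in the table), a receptor for type VI collagen and the highest of the list by its mean over both cell types, though below MRC2 in DPC and below ITGA2 in HMC, was not called, with means of 84.8 (DPC) and 86.1 FPKM (HMC; limma adjusted p = 0.726), and after quantile normalization it was higher in DPC by a log2 difference of 0.29. ITGA10 did not pass either, at 1.16 and 1.26 FPKM, and its sign turned, without passing, after median-of-ratios rescaling (log2 difference 0.02).

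Genes for cutting collagen were divided. Of 9 tested proteases and inhibitors 5 were higher in DPC and 4 in HMC, with a median of 1.68. Among all genes tested 29.7% passed toward DPC and 46.2% toward HMC. The gelatinase MMP2 averaged 2543 ± 94.97 FPKM over DPC against 50.5 ± 5.64 over HMC (SD, n = 3 each; log2 difference 5.63), and cathepsin K (CTSK) had a log2 difference of 5.63 as well. The protease MMP14 was higher in DPC too, at 434 ± 25.2 against 135 ± 2.09 FPKM (log2 difference 1.68). Higher in HMC were the gelatinase MMP9 (log2 difference -6.49), the collagenases MMP1 (CLG in the table), at 12.7 ± 2.19 against 0.172 ± 0.0647 FPKM, and MMP13, at 3.94 ± 1.08 FPKM and listed at 0 in all DPC libraries. The inhibitor TIMP3 was also higher in HMC, at 1203 ± 27.8 against 389 ± 5.44 FPKM, while TIMP1 and TIMP2 were 9.07 and 8.14-fold higher in DPC.

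Genes that act on collagen transcription were mixed, with 7 of 13 tested higher in DPC and 5 in HMC and a median of 0.23. For all genes tested the shares were 29.7% toward DPC and 46.2% toward HMC. The mesenchymal transcription factors TWIST1 (TWIST) and PRRX1 (PMX1) had log2 differences of 6.67 and 3.73. CCN2 (CTGF in the table), a matrix protein induced by TGF-beta, was the most abundant in DPC, with 2602 ± 95.4 FPKM against 500.1 ± 1.78 in HMC (SD, n = 3 each), where YBX1 was more abundant. The TGF-beta receptor gene TGFBR2 was higher in HMC at 156 ± 5.39 against 19.5 ± 0.715 FPKM, as were TGFBR1 at 52.2 against 28.3 FPKM, the ligand TGFB2 at 27.3 against 10.4 FPKM and the factor ETS1 (EWSR2) at 77.3 against 29.2 FPKM. Higher in DPC were the ligands TGFB1, at 47.9 against 40.8 FPKM, and TGFB3, at 8.51 against 2.34 FPKM. SMAD3 (MADH3 in the table), at 56.6 against 41.5 FPKM, and SMAD7 (MADH7), at 11.8 against 8.02 FPKM, were higher in DPC as well. YBX1, a repressor of COL1A1 and COL1A2 transcription in fibroblasts, was higher in HMC at 739 against 653 FPKM and did not pass after median-of-ratios rescaling (limma adjusted p = 0.69), while its sign turned when rescaled by the FPKM outside collagen chains (log2 difference 0.10). SP1 (TSFP1 in the table) did not pass, at 9.02 and 8.01 FPKM, and passed toward DPC after median-of-ratios rescaling (limma adjusted p = 0.0142).

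**Figure D5:**
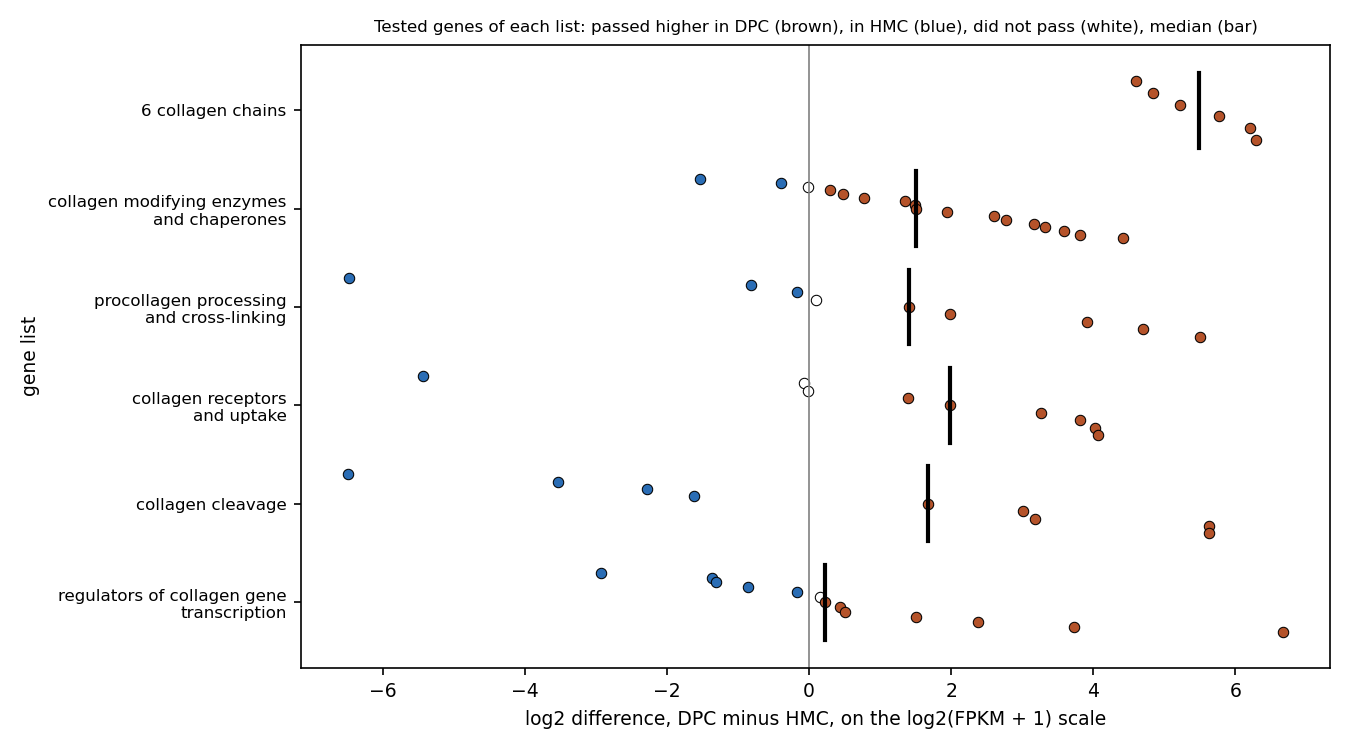
Log2 difference, DPC minus HMC, of each tested gene in the list of the 6 chains and in 5 lists of collagen-related genes, with brown for genes that passed toward DPC, blue toward HMC, white for those that did not pass, and a bar at the median. The 6 chains lie between 4.60 and 6.29 with a median of 5.50, to the right of the medians of the other lists, which lie between 0.23 and 1.99. Chains and lists were chosen with earlier results of these data known, so this position is no test of the 6 chains as a group.

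Likeness to the chains was measured by Euclidean distance between log2(FPKM + 1) values centred on each gene's mean. Among genes with a symbol, 5 had values over the 6 libraries most like the mean course of the 6 chains. They were SERPINF1 (PEDF in the table), a secreted serpin, at a distance of 0.110, the RNA-binding protein gene LARP6 at 0.143, the thrombospondin THBS2 (TSP-2) at 0.148, the microfibril protein MFAP5 (MAGP2) at 0.166 and the cadherin CDH13 at 0.192. The members themselves lay between 0.321 (COL5A1) and 1.10 (COL6A3) from their mean. LARP6 measured 183, 186 and 186 FPKM in the DPC libraries and 2.86, 2.68 and 3.40 in those of HMC, and PEDF 207, 208 and 205 and 3.85, 3.62 and 4.05 FPKM. MAGP2 rests on 7 to 8 recovered reads per HMC library. The measure is dominated by the size of the step between the cell types.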

How the data were processed

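Expression was deposited by the authors as FPKM per gene, 1 column per library. Per the labels' protocols the libraries were made with a stranded mRNA kit from Trizol-extracted RNA, and per the submitters' processing notes Trimmomatic, HISAT2 2.2.1.0 and DESeq 1.20.0 were used. Not given in the sources used here: counter, gene lengths, build and annotation. Coordinates and sequences are therefore not printed. A ratio between chains depends on the lengths the authors used.

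The values were whole multiples of a step per gene for 100% of genes (tolerance 1e-08). Recovered reads are lower limits, because a factor shared by all libraries of a gene cannot be seen.

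The comparison, DPC minus HMC and two-sided, took all genes averaging 0.5 FPKM or more. It used limma 3.58.1 (R 4.3.3), the scale log2(FPKM + 1), a variance trend and Benjamini-Hochberg adjustment at 0.05. The ratio fits used log2 FPKM with no constant and no variance trend, for 11375 genes above 0 in every library. The recovery of reads and the fit of the comparison were tested on simulated data, and the ratio fits were not. Of 117 list genes, 67 matched by symbol, 26 by a listed older symbol and 3 by one added later. The other 21 are not analysed here, among them CRTAP and DDR1, whose older symbols other genes share. Of rows sharing a symbol the most abundant was taken. Named were all members, all other fibrillar and type VI chains, and the 5 most like genes with a symbol. Of each list, the 3 passing genes of largest difference, the most abundant and those against its direction were named. Others were chosen after their values were seen. Members and lists were chosen with earlier results of these data known.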

Additional observations from a re-analysis of the deposited data

How the results depend on the processing

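All 6 chains stayed higher in DPC and past the threshold under each of 15 alternatives per chain: another constant, other filters, 3 rescalings, no variance trend, reads in place of FPKM, a block for the replicate number, and leaving out each library. Their log2 differences ranged from 4.53 (COL6A3) to 7.37 (COL11A1), with limma adjusted p between 6.18e-18 and 3.80e-08. Of 9020 genes called, 39.1% were higher in DPC, against 48.8% after median-of-ratios rescaling, 53.8% after quantile normalization and 57.1% after rescaling by the FPKM outside collagen chains (added after the data were examined), with a median log2 difference over all genes of -0.15, -0.02, 0.05 and 0.09. With the replicate block 8924 genes were called and all 6 chains kept their call. Same-numbered libraries did not deviate together (correlations of 0.023, 0.034 and 0.006). The block left the log2 differences of the ratios as they were and its exact permutation p was 0.25, the smallest 3 pairs allow.

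Of the 15 pairs, 7 were recomputed without each library, and none of these 7 changed sign. By limma instead of permutation the same 7 ratios passed, with log2 differences of 0.45 (COL1A1/COL1A2), 0.41 (COL5A1/COL5A2), 2.09 (COL11A1/COL5A1), 2.50 (COL11A1/COL5A2), -0.93 (COL5A1/COL1A1), -0.89 (COL5A2/COL1A2) and -1.55 (COL6A3/COL1A1). In those fits 98.4 to 99.3% of 11375 genes passed, so the passing of the 7 ratios is no result about the members. The filter at 5 FPKM removed low genes and left 0 other fibrillar and 0 type IV chains higher in HMC, 2 other type VI chains in DPC, and 3 and 1 non-fibrillar chains in DPC and HMC. The modifying enzymes higher in HMC were 1 in place of 2 under the median-of-ratios and the quantile scaling, and 1 to 2 without one library, 1 without DPC replicate 2 or HMC replicate 2. The depth limits COL11A1 most, with 64 recovered reads in its lowest library.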
